A study of Mus musculus with 9 samples.

Results

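The genes described here are 10 nuclear genes that set how many mitochondria a cell makes and how these fuse, divide and are cleared. They were the rows of the cerebellar count table whose Ensembl identifiers map to the mouse symbols Ppargc1a, Ppargc1b, Esrra, Nrf1, Tfam, Opa1, Mfn1, Mfn2, Dnm1l and Pink1. They are 10 of the 37816 genes with at least 1 count. No member differed by 1.5-fold at an adjusted p under 0.1 between any of the groups. Smaller differences at an adjusted p under 0.1 were found for 4 members when all 6 libraries with the long repeat were set against the 3 with the short one. In this contrast 9.75% of all tested genes passed, and of the 4 members Pink1 and Esrra were higher and Opa1 and Ppargc1b lower. With a correction for GC share and transcript length Ppargc1b alone passed, and none of the 10 did with Xist, choroid plexus markers or the replicate number in the fit. Leaving out 15Q replicate 2, leaving out 15Q replicate 3 and leaving out 84Q replicate 3 each also took the number to 0.

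The 9 libraries, 3 per group, hold RNA of cerebellar tissue from mice that model SCA3 (spinocerebellar ataxia type 3), of C57BL/6 background and 18 months old. Human ATXN3 was introduced into all of these mice on a YAC transgene. Its CAG repeat is 15 long in 15Q mice, while 84Q and 84Q+IGF1 mice have the expanded form of 84. The 84Q+IGF1 mice received IGF-1 at 50 mg/kg weekly into the peritoneum from 9 to 18 months. The 15Q and 84Q mice are given as PBS-injected in the protocol and as untreated in the sample labels, and every group carries the transgene, so there is no group without it. The tissue is a mixture of cell types, and in such bulk RNA fewer cells of a type and less RNA per cell cannot be told apart. The sample titles carry bracketed codes, some of which begin alike in the 84Q and 84Q+IGF1 groups, but the labels do not say whether these stand for a litter, a cage or a day of processing.

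Mitochondrial biogenesis is driven by the coactivators PGC-1α and PGC-1β, the products of Ppargc1a and Ppargc1b, which bind nuclear receptors such as ERRα (Esrra) and act with NRF1 on promoters of respiratory chain genes and of Tfam. TFAM packages mitochondrial DNA and starts its transcription. The shape of the network is set by fusion of the outer membranes through MFN1 and MFN2, fusion of the inner membranes through OPA1 and division through the dynamin DRP1 (Dnm1l), and the kinase PINK1 marks damaged mitochondria for removal. In the cerebellum, Purkinje cells have a high demand for mitochondrial ATP, and loss of MFN2 in these cells is known to cause their degeneration.

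Library totals ran from 17482654 to 58269196 counts, lowest in 84Q replicate 3 and highest in 15Q replicate 3, and each member had at least 506 counts in each library, which limits the counting error. Values are CPM (counts relative to the library total, which was scaled by TMM), and for comparisons between genes TPM (counts per base of exon, scaled to the same sum in each library). The summed markers stood at 7752 ± 197, 7577 ± 387 and 7745 ± 431 CPM (SD, n = 3) for Purkinje cells in the 15Q, 84Q and 84Q+IGF1 groups and at 5920 ± 175, 5791 ± 78.6 and 5910 ± 419 CPM for granule cells. Microglia markers summed to 148 to 177 CPM in the 15Q libraries, 179 to 219 CPM in the 84Q libraries and 159.9 to 172 CPM in the 84Q+IGF1 libraries, and oligodendrocyte markers to 4210 ± 153, 4366 ± 570 and 3615 ± 497 CPM, with no marker of either list called. The part of these shifts in the members' values was not tested. Other tissues were seen as well. The summed choroid plexus markers stood between 121 and 213 CPM in 6 libraries and at 1170, 1139 and 2082 CPM in 15Q replicate 1, 15Q replicate 3 and 84Q replicate 2. The summed skeletal muscle markers stood between 16.6 and 24.9 CPM in the 15Q libraries and between 3.96 and 5.62 CPM in the other 6, and 7 of the 8 markers were called lower there. None of the 8 was at 0 over a whole group. PGC-1α and PGC-1β are also made in muscle, and the part of this RNA in the values below was not tested.

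The members' promoters were read for the letters of 4 binding motifs, since the pathway is wired through them, in RefSeq windows (GRCm38.p6) that run from 250 bases before a transcription start to 50 bases after it. The motifs were GCGCANGCG for NRF-1, CCGGAAG for the ETS family to which the NRF-2 (GABP) factor belongs, TNAAGGTCA for estrogen-related receptors and TGACGTCA for CREB, on both strands. Windows were found for 9 of the 10 members, 13 windows in all, and Ppargc1b is not covered. The NRF-1 letters stood in 3 of the 13 windows (Esrra, Opa1 and Pink1), where 6.25% of all 32851 windows held them. The ETS letters stood in 3 others (Tfam, Mfn1 and Dnm1l), where 8.86% of all windows held them. No share was computed for windows of like GC content. The letters for estrogen-related receptors (1.28% of all windows) and CREB (1.79%) were in none of the 13. The 150 bases before the start are printed for the 5 genes whose motif lies there, 5′ to 3′ on the strand of the gene, with the motif in capitals. In Opa1 the NRF-1 letters match on both strands, 1 base apart. The stretches lie at chr19:6921809-6921958 (Esrra, minus strand), chr16:29579184-29579333 (Opa1, plus strand), chr4:138326297-138326446 (Pink1, minus strand), chr10:71238045-71238194 (Tfam, minus strand) and chr3:32529332-32529481 (Mfn1, plus strand).
Esrra: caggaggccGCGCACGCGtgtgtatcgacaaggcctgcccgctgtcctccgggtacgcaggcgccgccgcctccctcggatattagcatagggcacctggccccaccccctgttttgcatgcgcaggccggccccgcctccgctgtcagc
Opa1: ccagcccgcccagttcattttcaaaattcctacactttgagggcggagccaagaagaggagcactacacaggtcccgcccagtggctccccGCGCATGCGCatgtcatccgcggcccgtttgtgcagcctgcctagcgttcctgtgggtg
Pink1: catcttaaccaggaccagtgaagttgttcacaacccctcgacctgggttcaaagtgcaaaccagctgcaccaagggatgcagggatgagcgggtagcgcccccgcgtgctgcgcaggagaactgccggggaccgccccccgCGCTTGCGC
Tfam: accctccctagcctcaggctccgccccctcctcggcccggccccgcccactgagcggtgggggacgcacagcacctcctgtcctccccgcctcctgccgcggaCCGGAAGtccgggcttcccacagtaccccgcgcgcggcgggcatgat
Mfn1: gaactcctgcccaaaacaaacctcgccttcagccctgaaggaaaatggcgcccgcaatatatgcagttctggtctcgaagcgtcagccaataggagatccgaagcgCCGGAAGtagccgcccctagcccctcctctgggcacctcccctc

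Per length of transcript, the members spanned a wide range of levels. Pink1 was the most abundant, at 453 ± 60.4 TPM over the 9 libraries (SD), and its lowest library (359 TPM) lay above each library of the other 9 genes. Dnm1l (186 ± 5.87 TPM) and Mfn2 (171 ± 8.15 TPM) followed, with ranges that overlapped, and so did those of Mfn1 (89.0 ± 4.79 TPM) and Opa1 (82.5 ± 7.44 TPM). Esrra stood at 59.3 ± 3.33 TPM. The coactivator Ppargc1a was at 41.2 TPM (33.7 to 47.1) and Ppargc1b at 39.7 ± 9.02 TPM, which do not differ beyond their spread, and Ppargc1b ranged from 28.1 to 59.7 TPM so that it overlapped with Esrra above it and Tfam (30.6 ± 1.54 TPM) below it. Nrf1 was the least abundant at 13.0 ± 1.10 TPM, below each library of the other members. Variation over the 9 libraries was smallest for Dnm1l, with a coefficient of variation of 2.30% in CPM, and largest for Ppargc1b (21.0%) and Pink1 (14.3%).

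The question of the first comparison is how 84Q mice differ from 15Q mice, and that of the second how they differ under IGF-1. That of the third is what IGF-1 changes within the 84Q mice. The study's methods name different sources for the 15Q and 84Q mice, so repeat length cannot be told apart from line or source. A further contrast set the 6 libraries with 84 repeats against the 3 with 15. These comparisons share libraries, so their values stand side by side and are not independent of each other. Genes were tested with the quasi-likelihood test of edgeR over 19353 genes, and a call needed both a 1.5-fold change and a Benjamini-Hochberg adjusted p under 0.1. By this rule 0 of the 10 members was called in 84Q against 15Q, where 2.14% of all tested genes were called, 0 of 10 in 84Q+IGF1 against 15Q (2.25%), 0 of 10 in 84Q+IGF1 against 84Q (0%) and 0 of 10 in the 84Q and 84Q+IGF1 libraries against 15Q (3.51%). Over all genes, 84Q+IGF1 against 84Q had 905 with an unadjusted p under 0.05 and 6 called by DESeq2. The number of members with an unadjusted p under 0.05 was 6, 6, 0 and 6, where 19.4%, 17.7%, 4.68% and 22.6% of all tested genes had one. DESeq2 also called 0 members in each comparison. Without the fold threshold, 0 of 10 members passed an adjusted p under 0.1 in 84Q against 15Q (4.80% of all genes), 0 in 84Q+IGF1 against 15Q (3.67%), 0 in 84Q+IGF1 against 84Q (0%) and 4 in the contrast of the 6 libraries with 15Q (9.75%). By DESeq2 these counts were 4 (Ppargc1b, Opa1, Mfn2 and Pink1), 1 (Pink1), 0 and 5, beside 6.30%, 5.24%, 0.0185% and 9.19% of the genes to which it gave an adjusted p. The 4 of the edgeR test were Pink1 and Esrra, which were higher as were 3.64% of all tested genes, and Opa1 and Ppargc1b, which were lower as were 6.11%.

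**Figure D1:**
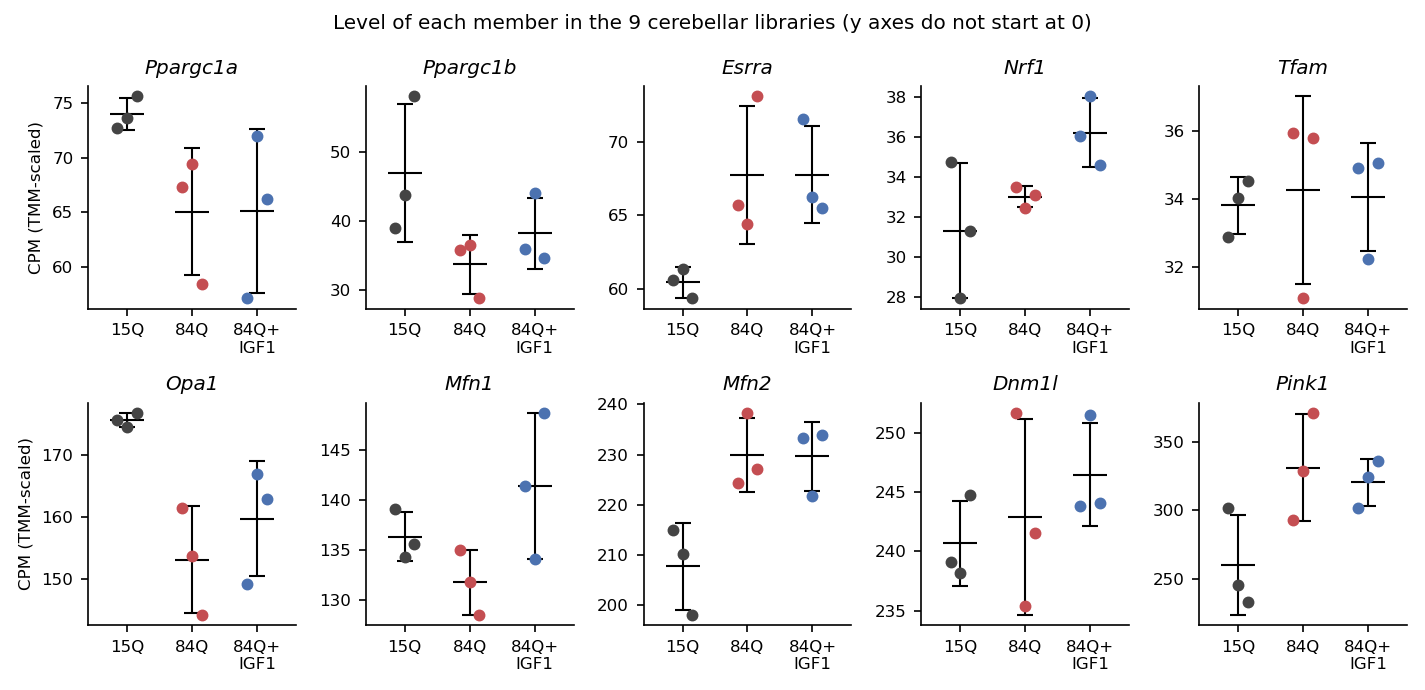
Level of each of the 10 genes in CPM (y axes, which do not start at 0) in the 9 libraries by group, with a point per library and a bar for the mean ± SD of 3 libraries. Opa1, Ppargc1a, Esrra and Mfn2 have 15Q points that do not overlap with the other 6, while Tfam, Mfn1 and Dnm1l overlap throughout.

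Ppargc1a (ENSMUSG00000029167.13, chromosome 5, 51454250 to 51567726) encodes PGC-1α, the coactivator that links energy demand to mitochondrial biogenesis. It was measured at 72.8, 73.6 and 75.6 CPM in the 15Q libraries, at 67.3, 69.4 and 58.4 CPM in the 84Q libraries and at 57.1, 71.9 and 66.2 CPM in the 84Q+IGF1 libraries. The 15Q libraries lay close together and above the other 6, of which 84Q+IGF1 replicate 2 was the highest. The log2 fold change was −0.18 ± 0.08 (SE) in 84Q against 15Q, with an adjusted p of 0.249, and −0.18 ± 0.08 in 84Q+IGF1 against 15Q, with an adjusted p of 0.272. Without 84Q+IGF1 replicate 1 the latter was −0.10, and without 84Q replicate 3 the former was −0.11. Against the 84Q group, the 84Q+IGF1 group differed by 0.00 (95% confidence interval −0.18 to 0.18).

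Ppargc1b (ENSMUSG00000033871.14, chromosome 18, 61298136 to 61400431) encodes the related coactivator PGC-1β. It was the most variable member, with 39.0, 43.7 and 58.1 CPM in the 15Q libraries, 35.8, 36.6 and 28.8 CPM in the 84Q libraries and 35.9, 44.1 and 34.7 CPM in the 84Q+IGF1 libraries. The highest value was that of 15Q replicate 3 and the lowest that of 84Q replicate 3, which are the deepest and the shallowest library. All 84Q libraries lay below all 15Q libraries, whereas 84Q+IGF1 replicate 2 lay above 2 of the 3. The log2 fold change was −0.48 ± 0.15 in 84Q against 15Q (adjusted p = 0.116), −0.30 ± 0.14 in 84Q+IGF1 against 15Q (adjusted p = 0.309) and −0.39 ± 0.12 for the 6 libraries against 15Q (adjusted p = 0.0954). The last value rests on 15Q replicate 3, without which it was −0.20 with an adjusted p of 0.464. Without 15Q replicate 1, Ppargc1b was called in 84Q against 15Q, at −0.59 and an adjusted p of 0.0591, whereas without 15Q replicate 3 that value was −0.29 (adjusted p = 0.399) and that of 84Q+IGF1 against 15Q was −0.11 (adjusted p = 0.781). The difference between 84Q+IGF1 and 84Q was 0.18, with an interval from −0.15 to 0.50, and it was 0.06 without 84Q+IGF1 replicate 2 and 0.08 without 84Q replicate 3.

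Esrra (ENSMUSG00000024955.15, chromosome 19, 6910977 to 6921813) encodes ERRα, the orphan nuclear receptor through which PGC-1α acts on respiratory chain genes. Its levels were 60.6, 61.4 and 59.4 CPM in the 15Q libraries, 65.7, 64.4 and 73.1 CPM in the 84Q libraries and 71.5, 66.2 and 65.5 CPM in the 84Q+IGF1 libraries. All 6 libraries with 84 repeats lay above the 15Q libraries. The log2 fold change was 0.16 ± 0.06 in 84Q against 15Q (adjusted p = 0.172), 0.16 ± 0.06 in 84Q+IGF1 against 15Q (adjusted p = 0.185) and 0.16 ± 0.05 for the 6 libraries against 15Q (adjusted p = 0.0939, and 0.153 with the correction for GC share and length). Between 84Q+IGF1 and 84Q the difference was 0.00 (interval −0.13 to 0.13). Esrra shares 73 exonic bases, 1.66% of its exon length, with Trmt112 on the opposite strand, which had 233 to 554 counts, and the strand setting of the counting is not given in the sources used here.

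Nrf1 (ENSMUSG00000058440.14, chromosome 6, 30047988 to 30153458) encodes the nuclear respiratory factor NRF1. It had 34.7, 28.0 and 31.3 CPM in the 15Q libraries, 33.5, 32.4 and 33.1 CPM in the 84Q libraries and 36.0, 38.0 and 34.6 CPM in the 84Q+IGF1 libraries. The 84Q+IGF1 libraries lay above all 84Q libraries, but 15Q replicate 1 lay above 84Q+IGF1 replicate 3. It was the only member whose 84Q+IGF1 and 84Q libraries did not overlap, which held for 8.46% of all tested genes, and the log2 fold change between them was 0.13 ± 0.08 with an adjusted p of 0.969. Against 15Q it was 0.08 ± 0.08 in the 84Q group (adjusted p = 0.654) and 0.21 ± 0.08 in the 84Q+IGF1 group (adjusted p = 0.214). These values rest on single 15Q libraries, since they were 0.0060 and 0.14 without 15Q replicate 2 and 0.16 and 0.29 (adjusted p = 0.0994 for the latter) without 15Q replicate 1. With the correction for GC share and length they were 0.18 and 0.29.

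Tfam (ENSMUSG00000003923.14, chromosome 10, 71225464 to 71238280), which encodes the mitochondrial transcription factor A, showed no difference past the spread between libraries. It had 32.9, 34.0 and 34.5 CPM in the 15Q libraries, 35.9, 31.1 and 35.8 CPM in the 84Q libraries and 34.9, 32.2 and 35.1 CPM in the 84Q+IGF1 libraries. The groups overlapped throughout. The intervals of the log2 fold change were −0.15 to 0.18 in 84Q against 15Q, −0.15 to 0.17 in 84Q+IGF1 against 15Q and −0.17 to 0.16 in 84Q+IGF1 against 84Q. On the linear scale the bounds of all 3 lie between 0.886-fold and 1.13-fold. The transcripts of mitochondrial DNA itself were not analysed here.

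Opa1 (ENSMUSG00000038084.16, chromosome 16, 29579334 to 29654884), the GTPase that fuses inner membranes and shapes cristae, was lower in each library with 84 repeats. It was measured at 176, 174 and 177 CPM in the 15Q libraries, the tightest group of any member with a coefficient of variation of 0.677%. The 84Q libraries had 161, 154 and 144 CPM and the 84Q+IGF1 libraries 149, 167 and 163 CPM. The log2 fold change was −0.20 ± 0.06 in 84Q against 15Q (adjusted p = 0.110), −0.14 ± 0.06 in 84Q+IGF1 against 15Q (adjusted p = 0.253) and −0.17 ± 0.05 for the 6 libraries against 15Q (adjusted p = 0.0847), or 10.9% lower. With the correction for GC share and length, the last value was −0.09 (adjusted p = 0.212) and that of 84Q+IGF1 against 15Q was −0.07 (adjusted p = 0.453). Without the correction, the latter ran from −0.17 to −0.09 with each library left out. Between 84Q+IGF1 and 84Q the uncorrected log2 fold change was 0.06, with an interval from −0.07 to 0.19.

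Mfn1 and Mfn2, the mitofusins that tether and fuse outer membranes, differed in their values. Mfn1 (ENSMUSG00000027668.13, chromosome 3, 32529465 to 32579239) had 139, 134 and 136 CPM in the 15Q libraries, 135, 132 and 128 CPM in the 84Q libraries and 141, 134 and 149 CPM in the 84Q+IGF1 libraries, with groups that overlapped. Its log2 fold change was −0.05 ± 0.05 in 84Q against 15Q (adjusted p = 0.654), 0.05 ± 0.05 in 84Q+IGF1 against 15Q (adjusted p = 0.625) and 0.10 ± 0.05 in 84Q+IGF1 against 84Q (adjusted p = 0.969). Mfn2 (ENSMUSG00000029020.13, chromosome 4, 147873599 to 147904704), which also ties mitochondria to the endoplasmic reticulum and is mutated in Charcot-Marie-Tooth neuropathy, had 215, 210.1 and 198 CPM in the 15Q libraries, 224, 238 and 227 CPM in the 84Q libraries and 233, 222 and 234 CPM in the 84Q+IGF1 libraries. All 6 libraries with 84 repeats lay above the 15Q libraries. For Mfn2 it was a log2 fold change of 0.15 ± 0.06 in 84Q against 15Q (adjusted p = 0.179), 0.15 ± 0.06 in 84Q+IGF1 against 15Q (adjusted p = 0.203) and 0.15 ± 0.05 for the 6 libraries against 15Q (adjusted p = 0.104). The ratio of Mfn2 to Mfn1 in TPM ran from 1.72 to 1.84 in the 15Q libraries, from 1.96 to 2.13 in the 84Q libraries and from 1.85 to 1.95 in the 84Q+IGF1 libraries. These ranges did not overlap, and the ratio was described after the values were seen and was given no test.

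Dnm1l (ENSMUSG00000022789.15, chromosome 16, 16312230 to 16358959), the fission dynamin DRP1, was the most even member. It had 239, 238 and 245 CPM in the 15Q libraries, 252, 235 and 242 CPM in the 84Q libraries and 244, 251 and 244 CPM in the 84Q+IGF1 libraries. The log2 fold changes were 0.01, 0.03 and 0.02 in the 3 comparisons, with intervals of −0.10 to 0.13, −0.08 to 0.15 and −0.09 to 0.13. Set against Opa1, its counterpart in the balance of fusion and fission, the TPM ratio of Opa1 to Dnm1l was 0.477 to 0.485 in the 15Q libraries, 0.394 to 0.431 in the 84Q libraries and 0.404 to 0.441 in the 84Q+IGF1 libraries, also without a test.

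Pink1 (ENSMUSG00000028756.12, chromosome 4, 138313409 to 138326307), the kinase that recruits Parkin to depolarized mitochondria and is mutated in a recessive form of Parkinson disease, had the highest mean level of the 10 genes in CPM. Its levels were 302, 246 and 233 CPM in the 15Q libraries, 293, 329 and 371 CPM in the 84Q libraries and 301, 324 and 336 CPM in the 84Q+IGF1 libraries. The groups overlapped, since 15Q replicate 1 lay above 84Q replicate 1 and 84Q+IGF1 replicate 1. The lowest value was that of 15Q replicate 3 and the highest that of 84Q replicate 3, the same libraries as for Ppargc1b with the order turned. The log2 fold change was 0.35 ± 0.10 in 84Q against 15Q (adjusted p = 0.110), 0.30 ± 0.10 in 84Q+IGF1 against 15Q (adjusted p = 0.170) and 0.32 ± 0.09 for the 6 libraries against 15Q (adjusted p = 0.0682), a change of 25.1%. With the correction for GC share and length, the last value of Pink1 was 0.21 (adjusted p = 0.149). Between 84Q+IGF1 and 84Q it was −0.05, with an interval from −0.27 to 0.18.

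**Figure D2:**
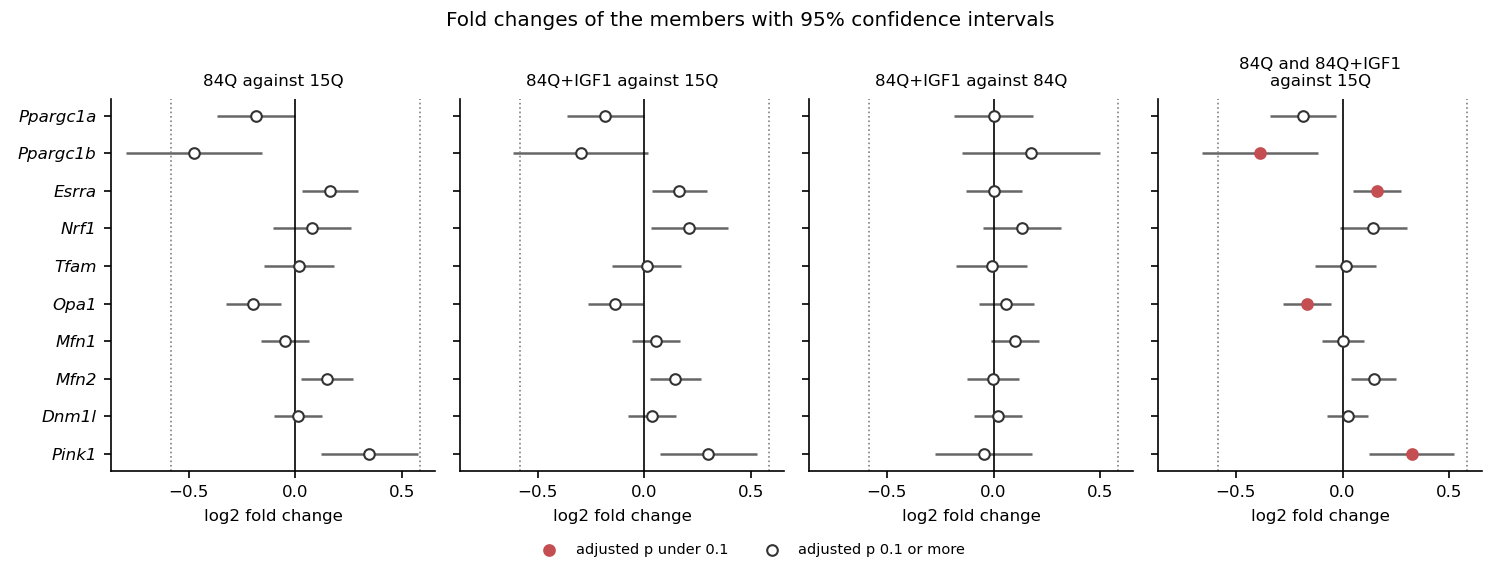
Log2 fold change (x axis) of each of the 10 genes in the 4 comparisons with its 95% confidence interval (horizontal line), filled in red where the adjusted p was under 0.1 and with dotted lines at a 1.5-fold change. The red points are Ppargc1b, Esrra, Opa1 and Pink1 in the contrast of 6 libraries with 15Q, and no point crosses a dotted line.

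By comparison, 5 of the 10 members did not overlap between the 84Q and 15Q libraries, Esrra and Mfn2 above and Ppargc1a, Ppargc1b and Opa1 below, where 25.4% of all tested genes did not overlap. In 84Q+IGF1 against 15Q these were 4 of 10 (Esrra and Mfn2 above, Ppargc1a and Opa1 below) where it held for 24.7%, and the same 4 did not overlap between the 6 libraries and 15Q, where it held for 12.3%. The median log2 fold change of the members was 0.02, 0.04, 0.01 and 0.02 in the 4 comparisons, and that of all tested genes lay between −0.01 and 0.00. The members' median size of change, without sign, was 0.16 in 84Q against 15Q where that of all genes was 0.14, and 0.03 in 84Q+IGF1 against 84Q where that of all genes was 0.09. In 84Q+IGF1 against 84Q the 95% intervals of all members lay between a 0.827-fold and a 1.41-fold change, so that a 1.5-fold response to IGF-1 lies outside them.

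Libraries and not only groups set the extremes. Of the 10 members, 15Q replicate 3 held the highest value of 3 (Ppargc1a, Ppargc1b and Opa1) and the lowest of 3 (Esrra, Mfn2 and Pink1), and 84Q replicate 3 held the highest of 2 and the lowest of 3. The deviation from the mean of the 9 libraries ran from −0.37 to 0.58 (log2) over the members in 15Q replicate 3 and from −0.43 to 0.30 in 84Q replicate 3, but only from −0.10 to 0.11 in 15Q replicate 1.

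**Figure D3:**
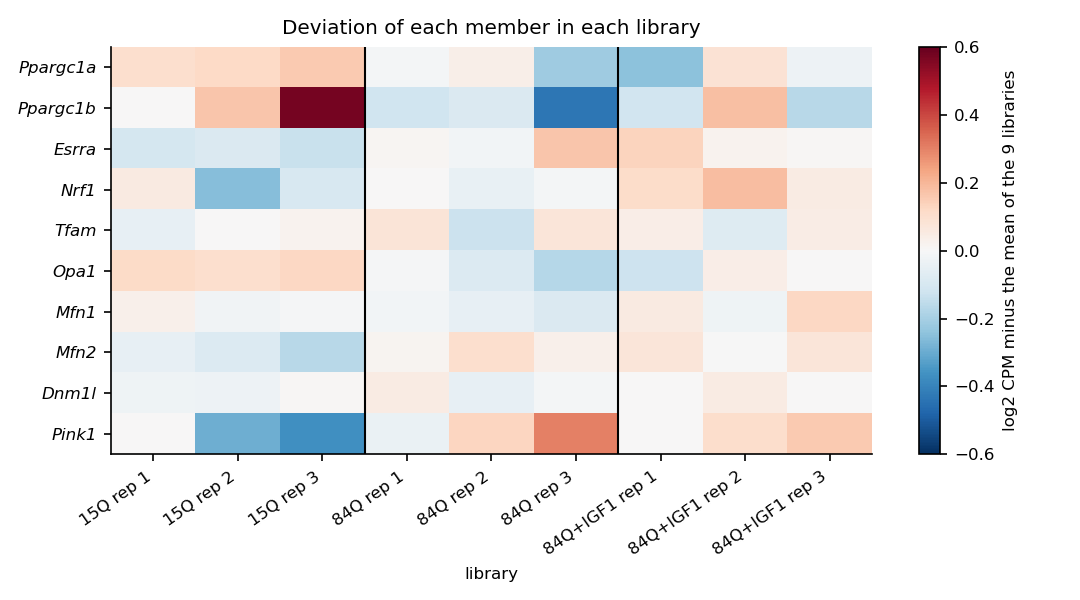
Deviation of log2 CPM from the gene's mean over the 9 libraries (color, red above and blue below) for the 10 genes (rows) in each library (columns, with lines between the groups). The darkest cells are Ppargc1b in 15Q replicate 3 (0.58) and in 84Q replicate 3 (−0.43), and Pink1 in these libraries runs the other way.

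The GC share and the length of transcripts moved with the groups. Among tested genes at 20 CPM or more, the median log2 fold change of the 6 libraries against 15Q was −0.06 in the lowest of 5 equal groups by GC share and 0.09 in the highest, and it was 0.11 in the shortest of 5 groups by exon length and −0.07 in the longest. Pink1, with 59.0% GC and 2673 bases of exon, was in the group with the highest GC share and in the shortest group, and Opa1 (43.5% GC) and Ppargc1a (41.7% GC) were in the group with the lowest GC share and in length group 4 of 5. With a correction for GC share and length in each library, chosen after the data were seen, the log2 fold change of the 6 libraries against 15Q was 0.21 for Pink1 (adjusted p = 0.149), −0.09 for Opa1 (adjusted p = 0.212), 0.13 for Esrra (adjusted p = 0.153) and −0.11 for Ppargc1a (adjusted p = 0.332). Of the 4 members past an adjusted p of 0.1, Ppargc1b was left, at −0.47 (adjusted p = 0.0829). Nrf1, the longest member with 10282 bases of exon, moved from 0.14 to 0.23 (adjusted p = 0.113), and Dnm1l from 0.02 to 0.08 (adjusted p = 0.272).

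**Figure D4:**
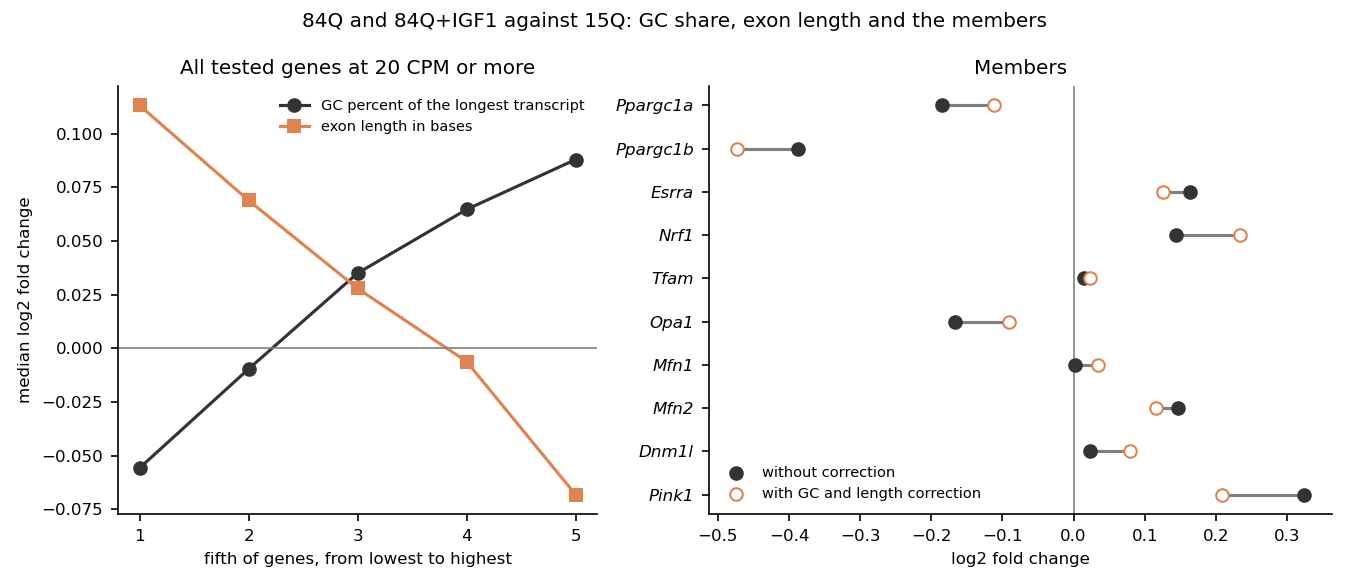
Left, median log2 fold change of the 6 libraries with 84 repeats against 15Q (y axis) by group of GC share (circles) and of exon length (squares), from 1 (lowest) to 5 (highest), over tested genes at 20 CPM or more. Right, log2 fold change (x axis) of the 10 genes without correction (filled) and with the correction for GC share and length (open), where Pink1 moved from 0.32 to 0.21, Opa1 from −0.17 to −0.09 and Ppargc1b from −0.39 to −0.47.

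The other genes of the pathway gave 159 tested genes in 8 lists, and 0 of them was called in any comparison. The 3 with too few counts to test were Slirp, Mtfr2 and Calcoco2, with 4 to 20, 3 to 22 and 0 to 3 counts. At any fold change, 9 passed an adjusted p under 0.1 in 84Q against 15Q (9 higher), which is 5.66% where 4.80% of all tested genes passed. In 84Q+IGF1 against 15Q these were 6 (5 higher and 1 lower), or 3.77% beside 3.67%, and in 84Q+IGF1 against 84Q 0. In the 6 libraries against 15Q they were 25 (19 higher and 6 lower), or 15.7% beside 9.75%. With the correction for GC share and length these counts were 3, 5, 0 and 19, where 3.39%, 4.17%, 0% and 7.48% of all tested genes passed. Of the 25 genes of the last contrast 10 were among the 19. Without 15Q replicate 2 or without 15Q replicate 3 the uncorrected counts were 0, 0, 0 and at most 1.

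Genes known as targets of PGC-1α and ERRα, most of them mitochondrial enzymes, made up 12 of these 25. Of the 31 genes, 8 were higher in 84Q against 15Q (25.8% beside 4.80% of all genes, median log2 fold change 0.17) and 2 were higher and 1 lower in 84Q+IGF1 against 15Q (9.68% beside 3.67%, median 0.10). In the 6 libraries against 15Q 11 were higher and 1 lower (38.7% beside 9.75%, median 0.14). With choroid plexus markers in the fit only Uqcrc2 passed in that contrast (adjusted p = 0.09998), and with the replicate number as a block Uqcrc2, Pvalb, Cox7a2 and Atp5b. In that contrast, the core subunit Uqcrc2 of complex III had 110.1 ± 2.66 CPM in the 15Q group, 129 ± 7.47 CPM in the 84Q group and 128 ± 4.36 CPM in the 84Q+IGF1 group (log2 fold change 0.22, adjusted p = 0.0276). The calcium buffer Pvalb, made in Purkinje cells and interneurons and raised by PGC-1α in interneurons, had 181 ± 3.08, 216 ± 17.5 and 224 ± 14.8 CPM (0.28, adjusted p = 0.0284). Slc25a4, the ADP/ATP carrier of the inner membrane, had 318 ± 13.9, 385 ± 29.5 and 364 ± 11.8 CPM, with a log2 fold change of 0.27 in 84Q against 15Q (adjusted p = 0.0616). With the correction for GC share and length the higher genes of this list went from 8 to 1 in 84Q against 15Q, where Uqcrc2 was left. In the 6 libraries against 15Q they went from 11 to 6, of which Ndufs1 had not passed without the correction. With it, Uqcrc2 was at 0.19 (adjusted p = 0.0147) and Pvalb at 0.21 (adjusted p = 0.0321) in that contrast, and Slc25a4 did not pass in either comparison. The gene that was lower, Cpt1a, encodes the carnitine transferase that admits fatty acids to mitochondria. It had 50.5 ± 0.893 CPM in the 15Q group, 47.1 ± 2.87 CPM in the 84Q group and 42.0 ± 2.46 CPM in the 84Q+IGF1 group, with a log2 fold change of −0.26 in 84Q+IGF1 against 15Q (adjusted p = 0.0672) and −0.16 in 84Q+IGF1 against 84Q (adjusted p = 0.969).

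**Figure D5:**
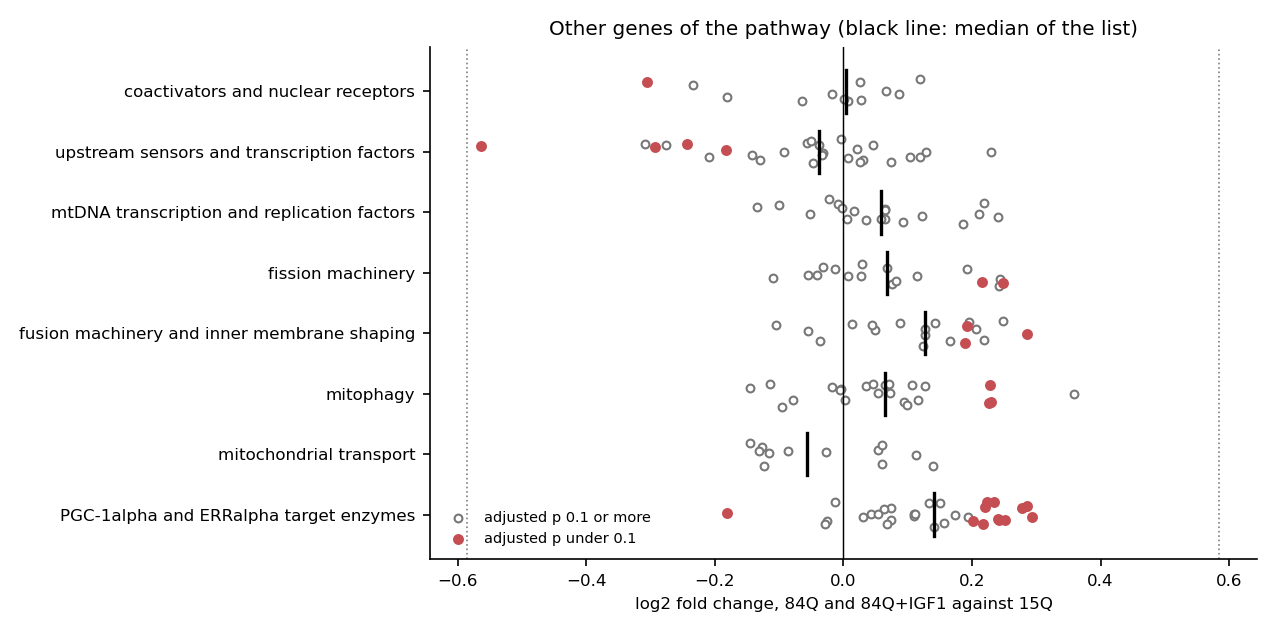
Log2 fold change of the 6 libraries with 84 repeats against 15Q (x axis) for the other pathway genes by list (rows), red where the adjusted p was under 0.1, with the median of each list as a black line and dotted lines at a 1.5-fold change. Medians run from −0.06 for mitochondrial transport to 0.14 for the targets of PGC-1α and ERRα, and no gene lies beyond a dotted line.

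In the lists of mitochondrial dynamics no gene passed in 84Q+IGF1 against 84Q. In the 6 libraries against 15Q, 2 of 17 fission genes were higher, the outer membrane adaptor Fis1 (0.22, adjusted p = 0.0433) and Mtfr1l (0.25, adjusted p = 0.0654), with a list median of 0.07 and a share of 11.8% beside the 9.75% of all genes. Of 19 fusion and inner membrane genes 3 were higher, among them Spg7, a subunit of the inner membrane m-AAA protease (0.19, adjusted p = 0.0464), and Chchd6, a component of the cristae organizing complex (0.29, adjusted p = 0.0474), with a median of 0.13 and a share of 15.8%. Of 23 mitophagy genes 3 were higher, among them Park7, which encodes the Parkinson-linked protein DJ-1 (0.23, adjusted p = 0.0401), and Fkbp8 (0.23, adjusted p = 0.0642), with a median of 0.06 and a share of 13.0%. With the correction for GC share and length Fis1, Chchd6, Park7 and Fkbp8 did not pass, while Mtfr1l and Spg7 did. Mtfr1l and Fkbp8 passed neither with the replicate number as a block nor with Xist or choroid plexus markers in the fit. Spg7 was lost with Xist, and Fis1, Chchd6 and Park7 with choroid plexus markers. None of the 6 passed without 15Q replicate 2 or without 15Q replicate 3. With the correction for GC share and length, 2 genes passed for fission, 4 for fusion and 4 for mitophagy (3 higher and 1 lower). Of these, 1, 1 and 1 had passed without the correction. Of 12 transport genes none passed (median −0.06), and the gene with the smallest p was Rhot2, the Miro GTPase that couples mitochondria to motors (0.14, adjusted p = 0.166).

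Of the 6 pathway genes that were lower, 4 were upstream of the coactivators. Of 27 sensors and transcription factors 4 were lower in the 6 libraries against 15Q and none was higher, with a list median of −0.04 and a share of 14.8% beside 9.75% of all genes in either direction and 6.11% lower. The transcription factor Sp1 was at −0.24 (adjusted p = 0.0722) and Prkaa2, the α2 catalytic subunit of the energy sensor AMPK, at −0.29 (adjusted p = 0.0794), with 30.9, 31.8 and 32.8 CPM in the 15Q libraries and 22.3 to 29.8 CPM in the other 6. Camk4, a calcium-dependent kinase upstream of CREB and PGC-1α that was singled out after its values were seen, had 88.2, 108 and 177 CPM in the 15Q libraries and 72.8 to 98.6 CPM in the other 6 (−0.56, adjusted p = 0.0804). Its 15Q replicate 3 stood apart, as it did for Ppargc1b, and without it Camk4 was at −0.21 (adjusted p = 0.390). With each of the other libraries left out in turn it was between −0.75 without 15Q replicate 1 (adjusted p = 0.0195) and −0.53 without 84Q replicate 3 (adjusted p = 0.143). Among 12 coactivators and nuclear receptors, the corepressor Nrip1, which opposes PGC-1α, was lower (−0.31, adjusted p = 0.0954), with a list median of 0.00. Sp1, Prkaa2 and Nrip1 did not pass with the GC and length correction, with the replicate number as a block or with Xist in the fit. Camk4 passed with the correction, and not with the block, Xist or choroid plexus markers. Of 19 factors of mitochondrial DNA transcription and replication none passed (median 0.06), and the smallest p was that of the protease subunit Clpp (0.22, adjusted p = 0.164).

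Over the 9 libraries, the genes whose profile lay closest to that of Ppargc1a, by root mean square difference of log2 CPM centred on each gene's mean, were Adgrf5 (0.0251), Arhgap32 (0.0294) and Alkbh8 (0.0296), where the median over all tested genes was 0.220. Of the members, Opa1 was closest at 0.0630, at rank 98 of all tested genes, followed by Dnm1l at 0.141, and Pink1 was farthest at 0.304. Ppargc1b stood at 0.184. All these values come from the same 9 libraries and share their depth and base composition.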

How the data were processed

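Cerebellar RNA in 9 libraries (3 each of 15Q, 84Q and 84Q+IGF1) was sequenced as strand-specific paired-end libraries. Trimming with Trimmomatic 0.36, alignment to GRCm38 with HISAT2 2.2.0 and counting on genes with featureCounts were done by the authors, per the submitters' processing notes and the study's methods, and the deposited values are these unnormalized counts. Annotation version and strand setting are not given in the sources used here.

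Identifiers were matched without their version to GENCODE vM21 (37681 of 37816), which gave symbols, positions and exon lengths. Counts were tested with edgeR 4.0.16 (R 4.3.3): TMM, filterByExpr, 1 quasi-likelihood fit of all 9 libraries, Benjamini-Hochberg adjustment over 19353 genes, calls at 1.5-fold and an adjusted p under 0.1. Tests are two-sided, and p-values measure only the spread between these samples, which may be technical. Standard errors come from the F statistic. Replicates differed beyond counting noise (chi-square per gene 9.58 to 16.1). The steps were tested on simulated data.

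Members and lists were chosen with earlier results of these data known. All members are named. In each list and comparison the text names called genes or, with none, up to 2 with the smallest p that pass at any fold, otherwise the smallest p in the contrast of the 6 libraries with 15Q. Promoter windows are from RefSeq (GRCm38.p6). The 12 lists of cell type and tissue markers were checked; those not given in the text had 0 called genes, except intestine (6 of 6 tested lower in the 6 libraries against 15Q), liver (6 of 7 lower) and epidermis (5 of 6 lower). Alternatives were the DESeq2 1.42.0 Wald test, DESeq2 size factors, no filter, other thresholds, the replicate number as a block, Xist or choroid plexus as a covariate, only the groups compared, each library left out, and, added later, a correction by splines of GC share and log2 exon length fitted per library on 12113 genes at 5 CPM or more.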

Additional observations from a re-analysis of the deposited data

How the results depend on the processing

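No member was called in any comparison under DESeq2, DESeq2 size factors, no filter on low counts, an adjusted p under 0.05, the replicate block, Xist, choroid plexus, the correction for GC share and length, or only the libraries of the groups compared. Leaving out each library gave 0 to 1 members called in 84Q against 15Q, the 1 being Ppargc1b without 15Q replicate 1, and 0 in the other comparisons. At any fold change 4 members passed in the 6 libraries against 15Q, and the number was 5 with DESeq2, 0 with Xist, choroid plexus or the replicate block, 0 in each of the fits that lacked 15Q replicate 2, 15Q replicate 3 and 84Q replicate 3, and up to 6 without other libraries. In 84Q against 15Q, 4 passed with DESeq2, 3 without the filter and 0 to 2 with each library left out, and in 84Q+IGF1 against 15Q 1, 2 and 0 to 2. For the other pathway genes, 9, 6 and 25 passed at any fold in 84Q against 15Q, 84Q+IGF1 against 15Q and the 6 libraries against 15Q. These counts were 26, 14 and 33 with DESeq2, 25, 20 and 33 without the filter, 0, 0 and 8 with the block, 3, 1 and 9 with Xist, and 4, 0 and 2 with choroid plexus. With the fold threshold 1 was called without the filter in 84Q against 15Q and 1 with the GC and length correction in the 6 libraries against 15Q, and leaving out each library gave 0 to 1 in each of these 3 comparisons.

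Same-numbered replicates did not pair, since the correlation of their deviations from the group means was between −0.31 and 0.08. With the replicate number as a block 0 members were called, and calls over all genes went from 414 to 242, from 435 to 271, from 0 to 0 and from 680 to 455 in the 4 comparisons. Calls over all genes were 1025, 1284, 168 and 1568 without the filter, 243, 281, 0 and 429 at an adjusted p under 0.05, 928, 711, 0 and 1886 at any fold, 6 in 84Q+IGF1 against 84Q with DESeq2, 258 and 419 in 84Q+IGF1 and in the 6 libraries against 15Q with choroid plexus, and 184 to 551, 226 to 629, 0 to 9 and 275 to 889 with each library left out.

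Of the recomputed log2 fold changes of members, 710 kept direction and side of the call rule, 5 gained a call and 35 changed sign, and the cause was not tested. The 5 were Ppargc1b in 84Q against 15Q without 15Q replicate 1, and the 4 members that pass in the 6 libraries against 15Q when the fold threshold is dropped. With choroid plexus as a covariate, Tfam was at −0.00654 in 84Q against 15Q, −0.0604 in 84Q+IGF1 against 15Q and −0.0335 in the 6 libraries against 15Q, and Esrra at −0.0355 and Mfn2 at 0.0128 in 84Q+IGF1 against 84Q. In that comparison Ppargc1a was at −0.00232 with the replicate block, −0.00137 with Xist, −0.0182 with the GC and length correction and −0.00202 in the fit of those groups alone, Esrra at −0.00127 in the latter, and Mfn2 at 0.0138 and Pink1 at 0.00367 with the correction. Mfn1 in the 6 libraries against 15Q was at −0.0107 with Xist. With each library left out, Tfam ranged from −0.0172 to 0.0893 in 84Q against 15Q, −0.00958 to 0.0523 in 84Q+IGF1 against 15Q, −0.0729 to 0.0288 in 84Q+IGF1 against 84Q and −0.00280 to 0.0528 in the 6 libraries against 15Q. Dnm1l ranged from −0.0114 to 0.0405 in 84Q against 15Q and Mfn1 from −0.0148 to 0.0258 in the 6 libraries against 15Q. In 84Q+IGF1 against 84Q the ranges were −0.0796 to 0.0850 for Ppargc1a, −0.0389 to 0.0581 for Esrra, −0.0195 to 0.0264 for Mfn2 and −0.128 to 0.0434 for Pink1.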
